A study of Mus musculus with 8 samples.

Results

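The genes described here encode the receptors by which phagocytes, the cells that engulf particles, dying cells and microbes, sense their surroundings. They are myeloid Fc receptors, C-type lectins, Toll-like receptors, leukocyte integrins and other surface proteins. The 48 genes were listed by mouse symbol and matched to the array through the Entrez identifier and symbol that GEO's platform annotation gives each probe set. Of these, 47 were measured among the 24704 named genes of the series. Fpr1 was not analysed here.

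Fc receptors bind antibody-coated particles, C-type lectins bind sugars and lipids of microbes and damaged cells, and Toll-like receptors bind microbial lipids, proteins and nucleic acids. Leukocyte integrins and selectin ligands hold phagocytes to vessel walls and to each other. Smooth muscle cells loaded with cholesterol are known to take up some macrophage genes in culture and in the artery wall, so these genes are often used to follow that change.

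The cells were aortic smooth muscle cells of the mouse, cultured in medium with serum. The 4 AdN5-labelled arrays came from cultures given the adenovirus titled AdN5, which the labels describe as overexpression of Nfat5. The 4 AdPl-labelled arrays came from cultures given the adenovirus titled AdPl, which the labels call control. Every culture of either group received virus (24 h) followed by cholesterol (72 h, 10 µg/ml), so no comparison without virus or without cholesterol could be made. What drives the viral transgene is not given in the sources used here. The comparison asked how the AdN5 virus altered these receptor genes in cholesterol-exposed cells. The labels do not say whether the replicates were separate cultures, so the p-values rest on a spread among samples that may be technical.

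Nfat5, the gene said to be overexpressed, was not higher on the AdN5-labelled arrays. Its log2 RMA levels, the deposited probe-set brightness on a log2 scale, were 7.06, 6.95, 6.98 and 6.88 on the AdN5-labelled arrays, against 7.06, 7.22, 7.11 and 7.25 on the AdPl-labelled arrays. The groups touched at 7.06. Its change on the log2 scale, -0.19 ± 0.078 (SE), had a 95% interval from -0.36 to -0.013 and an unadjusted p of 0.0375 in limma. It leaned lower but did not pass in limma after adjustment (adjusted p = 0.360), and the two-sided exact permutation p was 0.0571. Where its probes lie is not given in the sources used here, so whether they can read a viral transcript is unknown, and every direction below is drawn from the labels alone. All 10 smooth muscle markers lay above the limit for dim genes. The highest, Acta2, smooth muscle actin, was at 11.74 ± 0.079 in AdN5-labelled and 12.04 ± 0.021 in AdPl-labelled arrays (SD, n = 4 each). The lowest, Myocd, had a mean level of 3.29 over the 8 arrays, close to the limit. Dim means a mean level over the 8 arrays under 3.17, the 95 percentile of 1400 olfactory, vomeronasal and bitter taste receptor genes, which these cells are not known to use. Along the second principal component, which held 17.1% of the variance, AdN5 replicate 4 (24.7) and AdPl replicate 3 (14.2) had the highest scores, and the remaining arrays ran from -19.5 to 0.337.

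The phagocyte genes were mostly higher in the AdN5-labelled arrays, by small amounts. Among them 4 genes rose past an adjusted p of 0.05 (Benjamini-Hochberg over all 24704 genes in limma): Selplg by 1.66-fold, Adgre1 by 1.60-fold, Slc11a1 by 1.54-fold and Clec4d by 1.51-fold, and 0 fell. These 4 are 8.51% of the 47 measured members, where 0.364% of all genes were called higher, 0.413% lower and 0.777% in either direction. The groups did not overlap for 13 members, all of them higher (27.7%), where 4.22% of all genes separated in that direction and 8.78% in either. At an unadjusted p under 0.05 in limma, 19 members were higher and 0 lower, or 40.4% of the members against 6.24% of all genes on the higher side and 6.29% on the lower. Of the 47 members, 38 (80.9%) had a log2 fold change above 0, against 51.0% of all genes. The median log2 fold change was 0.24 over the members and 0.0042 over all genes. The members and the other gene lists below were chosen with earlier results of these data known. Shares set beside those of all genes therefore describe the lists and are not a test of them. In bulk RNA, more cells of a type and more RNA per cell cannot be told apart.

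The count of 4 depended on single arrays. It was 2 without AdN5 replicate 2 or 3, 3 without AdN5 replicate 4, 1 without AdPl replicate 1 or 4, 2 without AdPl replicate 2, and 1 without both AdPl replicate 3 and AdN5 replicate 4. It was 7 among genes above the median level and 10 when the variance was modelled as a robust trend on level. It was 1 at an adjusted p under 0.01 and 0 with the replicate number as a block.

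**Figure D1:**
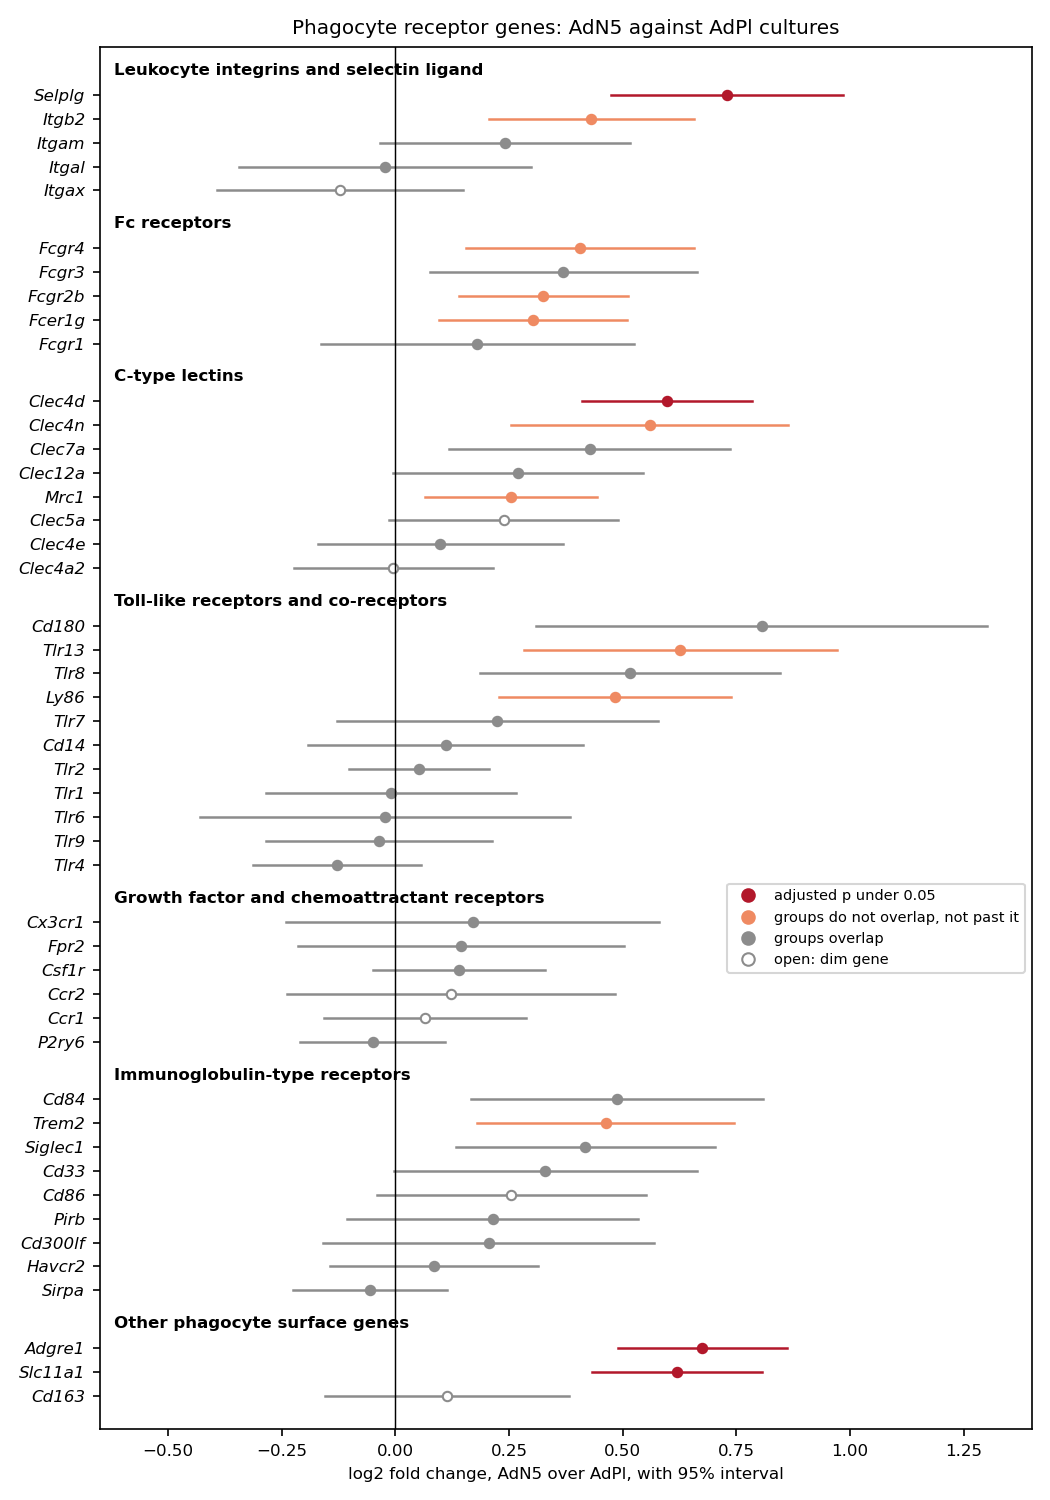
Log2 fold change (horizontal axis, AdN5-labelled over AdPl-labelled arrays, n = 4 each) of the 47 measured phagocyte genes, grouped by role; points are estimates from limma and lines their 95% intervals, not adjusted for the number of genes. The 4 red genes passed an adjusted p of 0.05, the 9 orange genes had groups that did not overlap without passing it, and the 7 open points are dim genes.

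Adgre1 encodes F4/80, the adhesion-type receptor used to identify mouse macrophages. Log2 levels were 8.30, 8.32, 8.43 and 8.52 on the AdN5-labelled arrays, against 7.65, 7.63, 7.79 and 7.80 on the AdPl-labelled arrays. The lowest AdN5-labelled array lay well above the highest AdPl-labelled array. The log2 fold change of 0.68 ± 0.083 (SE) had an adjusted p of 0.00884 in limma, the only member past 0.01, and Adgre1 was called in 8 of 8 fits that left out an array. Leaving out AdPl replicate 3 and AdN5 replicate 4 together gave 0.66 with an adjusted p of 0.0774.

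Slc11a1 encodes a metal ion transporter of the phagosome membrane that limits the growth of engulfed bacteria. Array by array its log2 levels were 6.69, 6.48, 6.69 and 6.74 on the AdN5-labelled arrays, against 6.07, 6.12, 5.96 and 5.97 on the AdPl-labelled arrays. The groups were apart, with AdN5 replicate 2 the nearest to the others. The log2 fold change was 0.62 ± 0.083 (adjusted p = 0.0134 in limma), and the call was lost without AdPl replicate 1 (adjusted p = 0.0518), without AdPl replicate 4 (0.0564) and without AdPl replicate 3 and AdN5 replicate 4 together (0.115). The promoter of this called gene is shown because members that move together may be compared in their upstream sequence. It is taken from RefSeq, build GRCm38.p6 (chr1:74374953-74375252, plus strand), and covers 300 bases, most of them upstream of the gene start. Capitals mark GAGGAA, the core of the sites bound by the myeloid factor PU.1, on either strand.
Slc11a1: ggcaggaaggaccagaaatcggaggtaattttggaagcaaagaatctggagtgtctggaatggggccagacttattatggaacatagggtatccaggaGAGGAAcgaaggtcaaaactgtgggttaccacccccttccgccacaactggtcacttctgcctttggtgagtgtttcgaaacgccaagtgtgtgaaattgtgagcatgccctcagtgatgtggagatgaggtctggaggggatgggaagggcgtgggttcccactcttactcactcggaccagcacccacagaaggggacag

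Cd163, the haemoglobin scavenger receptor often used as a marker of resting macrophages, was a dim gene. Its mean log2 level was 3.01 ± 0.18 in AdN5-labelled and 2.90 ± 0.18 in AdPl-labelled arrays (SD, n = 4 each), with a log2 fold change of 0.11 ± 0.12 (SE). Both means lie under the limit for dim genes.

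Among adhesion genes, the selectin ligand rose and the integrin chains varied. Selplg encodes PSGL-1, the ligand on leukocytes for P-selectin. The gene gave log2 levels of 4.06, 4.26, 4.26 and 4.41 on the AdN5-labelled arrays, against 3.42, 3.45, 3.80 and 3.39 on the AdPl-labelled arrays. The groups did not overlap, and AdPl replicate 3 was the high array of its group. On the log2 scale the change was 0.73 ± 0.11 (SE), the largest of the called members (adjusted p = 0.0253 in limma). It was called in 2 of 8 fits that left out an array, those without AdN5 replicate 1 and without AdPl replicate 3, and the adjusted p reached 0.0952 in the others.

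Itgb2 encodes CD18, the beta chain shared by the leukocyte integrins. Its log2 levels were 6.41, 6.61, 6.58 and 6.39 on the AdN5-labelled arrays, against 6.13, 5.83, 6.15 and 6.16 on the AdPl-labelled arrays. The groups did not overlap, and AdPl replicate 2 was lower than its group. The log2 fold change of 0.43 ± 0.10 (SE) did not pass (adjusted p = 0.107 in limma). The adjusted p was 0.0189 under a robust variance trend and 0.0380 among genes above the median level. It was 0.139 to 0.234 in the fits that left out an array. The alpha chains that pair with CD18 had smaller values. Itgam, encoding CD11b, was at 0.24 ± 0.12, Itgal, encoding CD11a, at -0.022 ± 0.14 and the dim gene Itgax, encoding CD11c, at -0.12 ± 0.12, and the groups overlapped for each.

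All 5 Fc receptor genes had log2 fold changes above 0 (median 0.32), but 0 passed limma's adjusted threshold and 4 had an unadjusted p under 0.05. Fcgr2b encodes the inhibitory IgG receptor. Log2 levels were 7.02, 7.05, 7.05 and 6.82 on the AdN5-labelled arrays, against 6.72, 6.55, 6.70 and 6.66 on the AdPl-labelled arrays. The groups did not overlap, and AdN5 replicate 4 came closest to the AdPl-labelled arrays. The groups differed by 0.32 ± 0.083 on the log2 scale (adjusted p = 0.142 in limma). The adjusted p was 0.0277 under a robust variance trend and 0.0451 among genes above the median level. It was 0.11 to 0.29 in the fits that left out an array.

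Fcer1g encodes the common gamma chain, the ITAM-bearing signalling partner of the activating Fc receptors and of several lectins. Array by array its log2 levels were 8.10, 8.18, 8.40 and 8.32 on the AdN5-labelled arrays, against 7.83, 7.99, 8.07 and 7.89 on the AdPl-labelled arrays. AdN5 replicate 1 and AdPl replicate 3 almost met, with no overlap. Its log2 fold change was 0.30 ± 0.093 (adjusted p = 0.215 in limma). The adjusted p was 0.0262 under a robust variance trend and 0.207 to 0.406 in the fits that left out an array.

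Fcgr4 encodes an activating receptor for IgG. The gene gave log2 levels of 3.61, 3.88, 4.13 and 3.84 on the AdN5-labelled arrays, against 3.42, 3.47, 3.38 and 3.58 on the AdPl-labelled arrays. The AdN5-labelled arrays spread more widely, and AdN5 replicate 1 lay just above the highest AdPl-labelled array. The log2 fold change was 0.41 ± 0.11 (adjusted p = 0.169). The other activating receptors overlapped between the groups, with Fcgr3 at 0.37 ± 0.13 and the high-affinity receptor Fcgr1 at 0.18 ± 0.15. On the RefSeq map Fcgr2b, Fcgr4 and Fcgr3 lie side by side on chromosome 1 with 0 other protein-coding genes between them. They are related in sequence, and cross-hybridisation between them was not tested.

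Of the 8 C-type lectin genes 1 rose, 7 did not pass, and 7 were above 0 (median 0.26). Clec4d encodes a receptor for mycobacterial glycolipids that signals through the common gamma chain. It had log2 levels of 5.96, 6.06, 6.16 and 6.02 on the AdN5-labelled arrays, against 5.40, 5.34, 5.58 and 5.49 on the AdPl-labelled arrays. The groups were clearly apart and each spread by little. On the log2 scale the change was 0.60 ± 0.083 (adjusted p = 0.0152 in limma). The call was kept in 3 of 8 fits that left out an array, those without AdN5 replicate 1, AdN5 replicate 4 or AdPl replicate 3, and the adjusted p was at most 0.0665 in the others.

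Clec4n encodes Dectin-2, a receptor for fungal mannans. Log2 levels were 6.05, 6.22, 6.35 and 6.14 on the AdN5-labelled arrays, against 5.67, 5.24, 5.74 and 5.88 on the AdPl-labelled arrays. The groups did not overlap, and AdPl replicate 2 was the lowest array. The log2 fold change of 0.56 ± 0.14 did not pass (adjusted p = 0.122 in limma). The adjusted p was 0.0193 under a robust variance trend and 0.133 to 0.257 in the fits that left out an array.

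Mrc1 encodes the macrophage mannose receptor. Array by array its log2 levels were 4.66, 4.74, 4.90 and 4.64 on the AdN5-labelled arrays, against 4.42, 4.56, 4.54 and 4.40 on the AdPl-labelled arrays. The groups were close but did not overlap, with a log2 fold change of 0.26 ± 0.084 (adjusted p = 0.247).

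The other lectins overlapped between the groups. Clec7a, encoding the beta-glucan receptor Dectin-1, was at 0.43 ± 0.14, Clec12a, an inhibitory receptor for uric acid crystals, at 0.27 ± 0.12, and the dim gene Clec5a at 0.24 ± 0.11. Clec4e encodes Mincle, which forms a complex with the Clec4d protein. Its mean log2 level was 6.85 ± 0.23 in AdN5-labelled and 6.75 ± 0.11 in AdPl-labelled arrays (SD, n = 4 each), and its log2 fold change of 0.099 had a 95% interval from -0.17 to 0.37. That interval does not reach the interval of Clec4d, which ran from 0.41 to 0.78, although the difference between these genes was not tested. The dim gene Clec4a2 was at -0.0047 ± 0.097. Clec4n, Clec4d and Clec4e are consecutive protein-coding genes on chromosome 6 of the RefSeq map, with Clec4a2 separated from Clec4n by 1 gene.

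The promoters of Clec4d and its neighbour Clec4e are shown because the first of these genes was called and the second was not. Both are from RefSeq, build GRCm38.p6 (Clec4d at chr6:123261857-123262156, plus strand; Clec4e at chr6:123289822-123290121, minus strand), with capitals again marking GAGGAA on either strand, read as TTCCTC where the match is on the opposite strand.
Clec4d: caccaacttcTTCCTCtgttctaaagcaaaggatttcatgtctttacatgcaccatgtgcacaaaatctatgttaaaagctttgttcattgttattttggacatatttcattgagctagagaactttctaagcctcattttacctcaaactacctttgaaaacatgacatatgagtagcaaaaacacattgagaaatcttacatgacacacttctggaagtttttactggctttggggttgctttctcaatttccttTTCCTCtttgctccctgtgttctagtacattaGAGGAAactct
Clec4e: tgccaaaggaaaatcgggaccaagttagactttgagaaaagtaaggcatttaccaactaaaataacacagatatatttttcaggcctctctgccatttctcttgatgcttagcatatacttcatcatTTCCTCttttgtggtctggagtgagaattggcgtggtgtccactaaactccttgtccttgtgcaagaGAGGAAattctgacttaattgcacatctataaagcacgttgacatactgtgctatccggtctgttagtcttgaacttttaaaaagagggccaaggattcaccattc

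The Clec4d window held 3 matches, the Clec4e window 2 and the Slc11a1 window 1. Of the 48 members, 35 had entries in the promoter table, with 40 promoters in all. The called genes Adgre1 and Selplg had none, nor did Itgb2 and Clec4n, whose groups did not overlap. GAGGAA occurred on either strand in 25 of the 40 member promoters (62.5%), where 28.3% of all 32851 promoters held it. It was in 6 of 9 promoters of members whose groups did not overlap (66.7%) and in 19 of 31 of the other members (61.3%). TGGAAA, the core recognised by NFAT proteins, was in 12 of the 40 (30.0%), where 21.4% of all promoters held it, in 1 of the 9 (11.1%) and in 11 of the 31 (35.5%). Both motifs contain GGAA, and a match is a description of letters and not of a bound site.

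Of the 11 Toll-like receptor and co-receptor genes, 0 passed limma's adjusted threshold, 4 had an unadjusted p under 0.05, all higher, and the median log2 fold change was 0.11. Tlr13 encodes the mouse endosomal receptor for bacterial ribosomal RNA. The gene gave log2 levels of 4.10, 4.23, 4.60 and 4.76 on the AdN5-labelled arrays, against 3.55, 3.95, 3.83 and 3.86 on the AdPl-labelled arrays. The groups did not overlap, but the AdN5-labelled arrays ranged widely. The groups differed by 0.63 ± 0.15 on the log2 scale (adjusted p = 0.127 in limma). The adjusted p was 0.0419 under a robust variance trend and 0.101 to 0.273 in the fits that left out an array.

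Ly86 encodes MD-1, the secreted partner of the Toll-like protein CD180. Its log2 levels were 5.35, 5.18, 5.62 and 5.31 on the AdN5-labelled arrays, against 4.85, 4.85, 5.10 and 4.73 on the AdPl-labelled arrays. AdPl replicate 3 came within reach of AdN5 replicate 2, with no overlap. Its log2 fold change was 0.48 ± 0.11 (adjusted p = 0.110 in limma). The adjusted p was 0.0426 under a robust variance trend and 0.0440 among genes above the median level. It was 0.101 to 0.262 in the fits that left out an array. Cd180 itself had the largest fold change of any member, 0.81 ± 0.22, but its groups overlapped, at 5.36 ± 0.36 in AdN5-labelled and 4.55 ± 0.40 in AdPl-labelled arrays (SD, n = 4 each; adjusted p = 0.169).

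The endosomal receptor for single-stranded RNA Tlr8 was at 0.52 ± 0.15 and its neighbour on the X chromosome Tlr7 at 0.22 ± 0.16, both with overlapping groups. Tlr4, the receptor for lipopolysaccharide, had a mean log2 level of 8.27 ± 0.12 in AdN5-labelled and 8.40 ± 0.057 in AdPl-labelled arrays (SD, n = 4 each). Its log2 fold change of -0.13 was the lowest of any member (95% interval -0.31 to 0.057). Its co-receptor Cd14 was at 0.11 (-0.19 to 0.41). Tlr2, the receptor for lipoproteins, was at 0.052 (-0.10 to 0.21), and its partners Tlr1 and Tlr6 were at -0.0093 (-0.28 to 0.27) and -0.024 (-0.43 to 0.38). Tlr9, which binds unmethylated DNA in endosomes, was at -0.036 (-0.28 to 0.21).

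**Figure D2:**
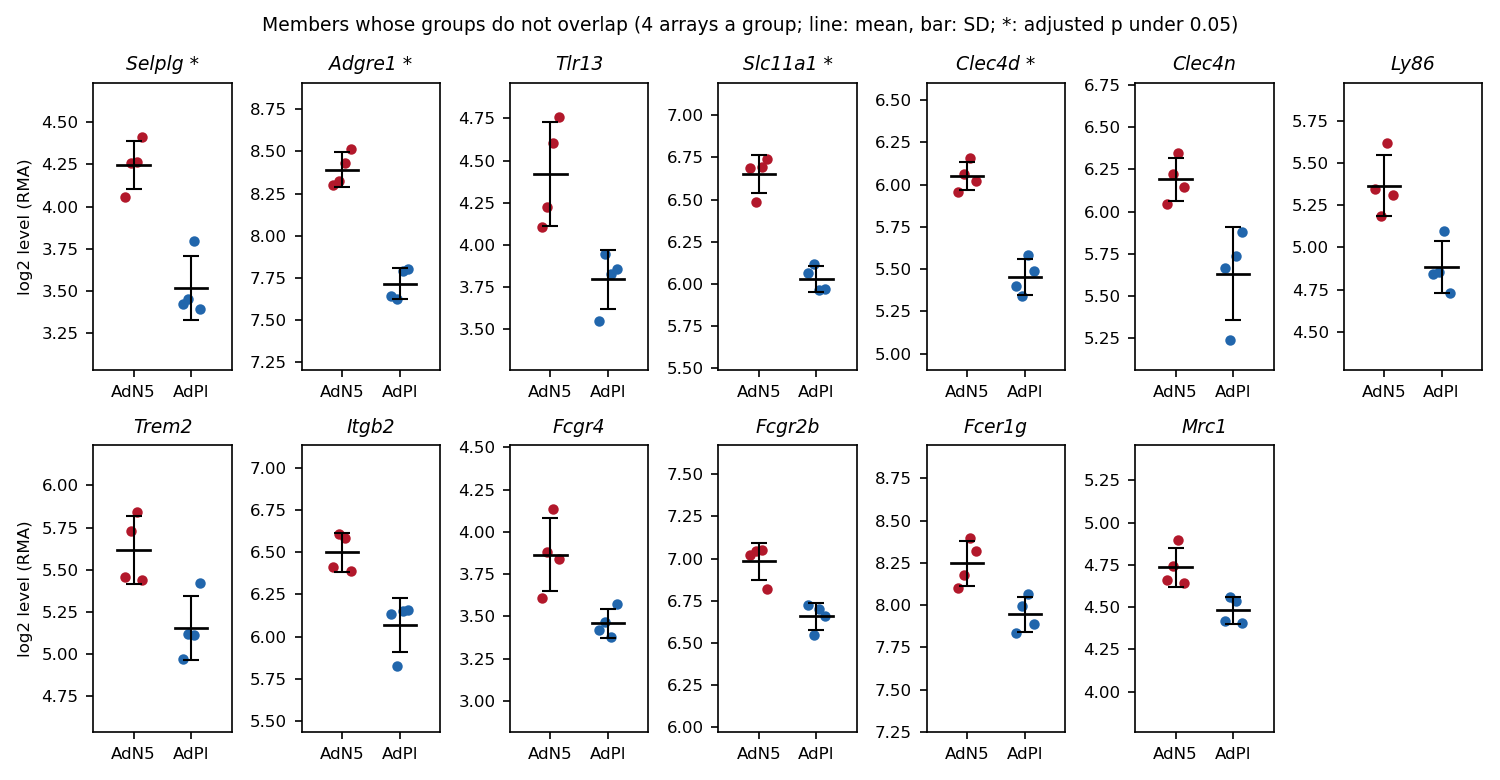
Log2 RMA level (vertical axis, same span in each panel) of the 13 members whose groups did not overlap, on the 4 AdN5-labelled (red) and 4 AdPl-labelled (blue) arrays; lines are means, bars SDs, and asterisks mark an adjusted p under 0.05. Every red point lies above every blue point of its panel, and the mean difference runs between 0.26 for Mrc1 and 0.73 for Selplg.

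For receptors of growth factors and chemoattractants no difference was resolved. Of the 6 measured genes 0 passed limma's adjusted threshold and 0 had an unadjusted p under 0.05, and the median log2 fold change was 0.13. Csf1r, the receptor for the factor on which macrophages depend for survival, had a mean log2 level of 5.56 ± 0.085 in AdN5-labelled and 5.42 ± 0.11 in AdPl-labelled arrays (SD, n = 4 each). Its log2 fold change was 0.14, with an interval from -0.049 to 0.33 that lies below that of Adgre1 (0.49 to 0.86), a difference that was not itself tested. Cx3cr1, the fractalkine receptor, was at 0.17 ± 0.18, the formyl peptide receptor Fpr2 at 0.14 ± 0.16 and the nucleotide receptor P2ry6 at -0.050 ± 0.071. The monocyte chemokine receptors Ccr1 (0.065) and Ccr2 (0.12) were dim genes.

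Among the 9 receptors of the immunoglobulin type 0 passed limma's adjusted threshold, 3 had an unadjusted p under 0.05, and 8 were above 0 (median 0.25). Trem2 encodes a lipid-sensing receptor of macrophages in fat-laden tissue. Log2 levels were 5.46, 5.73, 5.84 and 5.44 on the AdN5-labelled arrays, against 4.97, 5.12, 5.11 and 5.42 on the AdPl-labelled arrays. AdPl replicate 4 nearly reached AdN5 replicate 4. The log2 fold change was 0.46 ± 0.13 (adjusted p = 0.167). Cd84, a homotypic adhesion receptor, was at 0.49 ± 0.14 and Siglec1, the sialic acid receptor sialoadhesin, at 0.42 ± 0.13, both with overlapping groups and an unadjusted p under 0.05.

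The remaining members of this group, several of them inhibitory, had overlapping groups. Cd33 was at 0.33 ± 0.15, Pirb at 0.21 ± 0.14, Cd300lf at 0.20 ± 0.16, Havcr2, encoding TIM-3, at 0.085 ± 0.10 and Sirpa, which reads the don't-eat-me signal CD47, at -0.055 ± 0.076. The dim costimulatory gene Cd86 was at 0.25 ± 0.13. Pirb and Sirpa have close relatives in the mouse genome, and hybridisation of their transcripts to these probes was not tested.

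**Figure D3:**
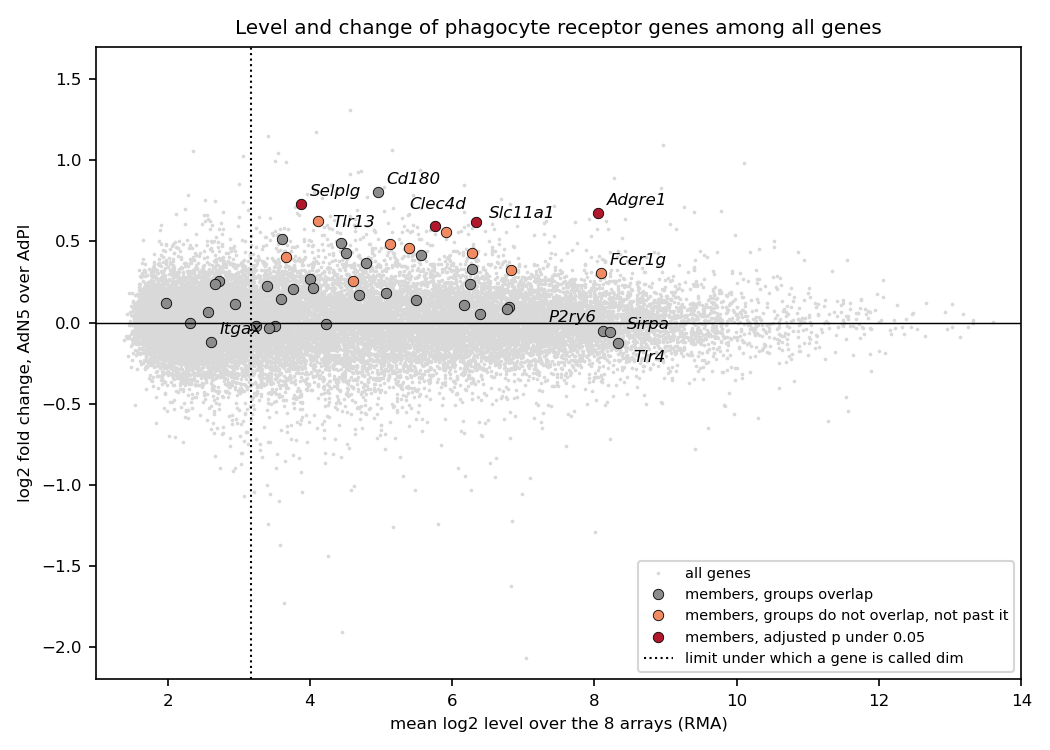
Mean log2 RMA level over the 8 arrays (horizontal axis) against log2 fold change of AdN5-labelled over AdPl-labelled arrays (vertical axis) for 24704 genes (grey) and the 47 members (coloured by whether they passed the adjusted threshold or had groups that did not overlap). The 13 members with separate groups all lie above 0 and right of the dotted limit for dim genes, while Tlr4, Sirpa and P2ry6 lie close to 0.

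The 7 dim members were Cd86, Clec5a, Ccr2, Cd163, Ccr1, Clec4a2 and Itgax, and 0 of them separated the groups or passed. Of the 40 members above the limit, 33 had a log2 fold change above 0 (median 0.26) and 13 separated the groups, where 6.09% of all 14560 genes above the limit separated in the higher direction. The limit was set on the mean over all 8 arrays.

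Lists of genes that work with these receptors had median log2 fold changes nearer to 0 than the members' 0.24, and the difference between lists was not tested. Of 14 measured adaptors and kinases of ITAM signalling, through which Fc receptors and many lectins act, 0 passed limma's adjusted threshold. At an unadjusted p under 0.05 there were 3, and the median log2 fold change was 0.028. Of all genes, 6.24% were higher and 6.29% lower at that unadjusted p. Tyrobp, encoding the adaptor DAP12 that carries the Trem2 signal, was at 0.47 ± 0.11 and the kinase Btk, a dim gene, at 0.28 ± 0.11. At the other end were Card9 (-0.15), the adaptor downstream of Dectin-1 and Dectin-2, and the kinase gene Fgr (-0.048), also dim.

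Of 18 measured adaptors and chaperones of Toll-like receptors 0 rose, 1 fell and 17 did not pass (median 0.036), and 5 had an unadjusted p under 0.05. The groups separated for 3 genes on the higher side and 2 on the lower. Of all genes 4.22% separated on the higher side and 4.56% on the lower, and 0.413% were called lower. Lbp encodes the protein that hands lipopolysaccharide to CD14. Array by array its log2 levels were 11.27, 11.37, 11.05 and 11.50 on the AdN5-labelled arrays, against 11.84, 11.81, 11.87 and 11.84 on the AdPl-labelled arrays. The AdPl-labelled arrays were nearly equal and the AdN5-labelled arrays all lower, with a log2 fold change of -0.54 ± 0.099 (adjusted p = 0.0450 in limma). The count of called genes in this list was 0 in the fits without AdN5 replicate 1, 2 or 3. It was also 0 without any 1 of the 4 AdPl replicates, and 3 with a variance trend. Irf7, an interferon regulatory factor, was at 0.45 ± 0.086 (adjusted p = 0.0537), Irf5 at 0.30, and Irak3, which restrains Toll-like receptor signals, at -0.29 ± 0.065 (adjusted p = 0.0971). Of the 4 Toll-like receptors outside the members 0 passed and 1 had an unadjusted p under 0.05: Tlr5, the flagellin receptor, at -0.36 ± 0.089 (adjusted p = 0.133). Tlr3 was at -0.099, and the dim genes Tlr12 and Tlr11 were at -0.061 and 0.030.

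Among 21 ligands of the receptors 3 chemokine genes rose, 0 fell and 18 did not pass (median 0.13). At an unadjusted p under 0.05 there were 9 of the 21, and 9 separated the groups on the higher side. Of all genes 4.22% separated on that side and 0.364% were called higher. Ccl5 and Ccl3, ligands of CCR1, rose by 0.83 ± 0.097 and 0.64 ± 0.11 on the log2 scale (adjusted p = 0.00802 and 0.0337), and Ccl7, a ligand of CCR1 and CCR2, by 0.51 ± 0.079 (0.0255). At the lower end were the dim S100a9 (-0.25) and Ccl12 (-0.14). The count was 1 in 7 of the 8 fits that left out an array and 2 without AdPl replicate 3.

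Macrophage markers outside the 48 genes were higher in the same arrays. Of 16 measured markers 5 rose, 0 fell, 11 did not pass, 9 separated the groups on the higher side and 14 were above 0 (median 0.41). Among all genes 0.364% were called higher and 4.22% separated on that side. Mpeg1, encoding perforin-2, rose by 0.63 ± 0.088, the protease gene Ctss by 0.61 ± 0.10, Lcp1, encoding the actin bundler L-plastin, by 0.60 ± 0.093, Laptm5 by 0.53 ± 0.086 and the lysosomal glycoprotein gene Cd68 by 0.52 ± 0.088. Cd74 (-0.016) and Cd53 (-0.054) were at the lower end, and Spi1, encoding PU.1, was at 0.34 ± 0.13 (adjusted p = 0.309). None of the 16 was dim. Their summed level, on the linear scale, was 1603 to 1856 in AdN5-labelled and 1201 to 1306 in AdPl-labelled arrays, beside 3002 to 3373 and 2668 to 2795 for the 47 members. Their part in the result was not tested. The count of 5 was 0 without AdN5 replicate 2, AdPl replicate 1 or AdPl replicate 2, 1 without AdN5 replicate 1, 3 or 4 or AdPl replicate 4, 2 without AdPl replicate 3 and 0 without AdPl replicate 3 and AdN5 replicate 4 together.

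Markers of other leukocytes were mostly dim. The dim genes were 9 of 12 for neutrophils, 7 of 10 for dendritic cells, 7 of 11 for T or NK lymphocytes, 6 of 7 for B lymphocytes and 6 of 8 for mast cells. In limma 0 genes of these 5 lists passed, and at an unadjusted p under 0.05 there were 2, 1, 1, 0 and 1. Their median log2 fold changes were -0.031 for neutrophils, -0.0066 for dendritic cells, 0.065 for T or NK lymphocytes, 0.079 for B lymphocytes and 0.047 for mast cells. At the ends of these lists were S100a8 (0.37), Ngp (0.14), S100a9 (-0.25) and Mpo (-0.23) for neutrophils, and Cd4 (0.39), Il7r (0.36), Klrb1c (-0.34) and Cd2 (-0.095) for T or NK lymphocytes. Those of dendritic cells were Ccr7 (0.13), Flt3 (0.11), Itgae (-0.44) and Batf3 (-0.22). The ends were Pax5 (0.19), Cd79a (0.16), Cd79b (-0.070) and Fcer2a (0.012) for B lymphocytes and Kit (0.35), Hdc (0.14), Cpa3 (-0.41) and Tpsb2 (-0.29) for mast cells. Of these named genes only Mpo, Cd4, Ccr7, Pax5 and Kit were not dim.

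Of the cells of the vessel wall, the 11 fibroblast or adventitial markers had a median of -0.17, with 1 fallen and 10 not past the threshold. On the lower side 6 of the 11 separated the groups. Of all genes 4.56% separated on that side and 0.413% were called lower. Ly6c1 fell (adjusted p = 0.0468), with a mean log2 level of 2.79 ± 0.50 in AdN5-labelled and 4.04 ± 0.26 in AdPl-labelled arrays (SD, n = 4 each), and no fold is given because the AdN5-labelled mean lies under the limit for dim genes. The progenitor marker Cd34 had a log2 fold change of -0.53, and the upper end held Clec3b (0.061) with Tcf21 (0.0065). Their summed level was 11551 to 11733 in AdN5-labelled and 12221 to 13311 in AdPl-labelled arrays, and its part in the results on phagocyte genes was not tested. The call of Ly6c1 held in 1 of 8 fits that left out an array, that without AdN5 replicate 1. The 10 smooth muscle markers (median 0.0058) and the 10 endothelial markers (median -0.039) had 0 called genes and 2 each at an unadjusted p under 0.05. Cnn1 (0.33), Lmod1 (0.17), Acta2 (-0.30 ± 0.071) and Myocd (-0.026) were the ends of the smooth muscle list, and Cdh5 (0.35), Pecam1 (0.12), Egfl7 (-0.31) and Tek (-0.22) those of the endothelial list.

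**Figure D4:**
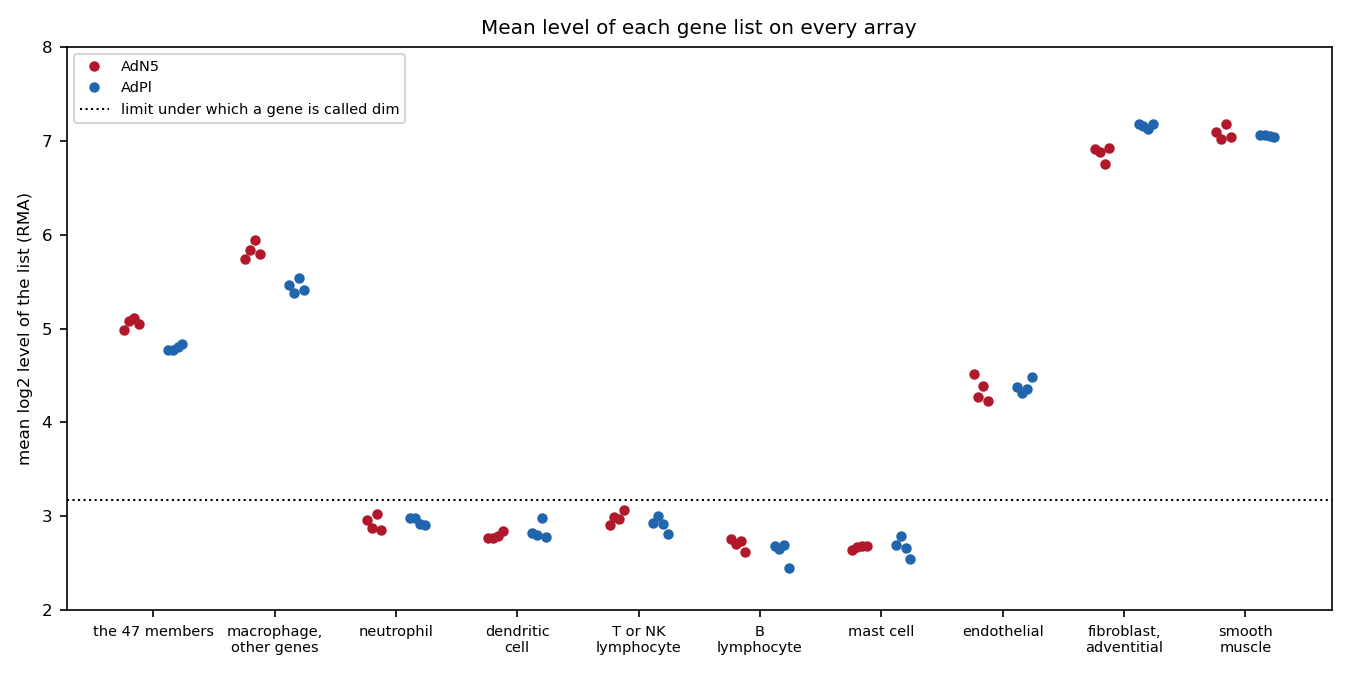
Mean log2 RMA level (vertical axis) of the 47 members and of 9 marker lists on each array, with AdN5-labelled arrays in red left of AdPl-labelled arrays in blue (4 points each). The members and the other macrophage markers are higher on every AdN5-labelled array, the fibroblast list is lower on every one, and the other leukocyte lists lie under the dotted limit for dim genes.

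The members' mean level separated the groups array by array. It was 4.98, 5.08, 5.12 and 5.05 on the AdN5-labelled arrays, against 4.77, 4.77, 4.80 and 4.84 on the AdPl-labelled arrays, or 5.06 ± 0.059 and 4.80 ± 0.033 (SD, n = 4 each). AdN5 replicate 1 was the low array of its group, and AdN5 replicate 4 and AdPl replicate 3, which had the highest scores on the second principal component, were inside the ranges of their groups. Fc receptors had the widest spread of any receptor group within the AdN5-labelled arrays, with means of 5.69, 5.93, 6.02 and 5.74, against 5.48, 5.52, 5.57 and 5.55 on the AdPl-labelled arrays.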

How the data were processed

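Total RNA of mouse aortic smooth muscle cells was measured on 8 one-colour arrays, 4 in each group, placed by their titles. The deposited log2 values were made by the authors with RMA, per the submitters' processing notes. RMA corrects background, equalises the distributions of the arrays and summarises the probes of each set, so a shift shared by all genes cannot be seen. Genes were named from GEO's platform annotation, which may be old, and updating symbols through Entrez identifiers changed 0 of them. The genome build behind the array's probes is not stated in the sources used here. Of 25428 probe sets, 24705 carried 1 gene symbol, 0 several and 723 none. Where a symbol had more than 1 probe set the brighter was kept, which left 24704 genes.

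The comparison used limma (version 3.58.1, R 4.3.3), with a moderated two-sided test for each gene, no covariate and Benjamini-Hochberg adjustment. Exact two-sided permutation tests over the 70 assignments of arrays cannot give a p below 0.0286, which each of the 13 members with separate groups had. Precision is set by the small number of arrays, and the median SE of a log2 fold change was 0.112. The fit was tested on simulated data.

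The 48 members, the 4 pathway lists and the 9 marker lists were chosen with earlier results of these data known. Any member may be named, and values on every array are given for members that passed or whose groups did not overlap. From each other list, called genes and the 2 genes at either end are named, and Spi1 was chosen after its values were seen. Alternatives covered a block for the replicate number, normalisation, filters on dim genes, probe sets averaged, the variance model, array weights, each array left out and stricter thresholds. Planned motif searches in proteins were not run, since no protein sequences were used here. Figures were drawn in Python 3.11.15 (matplotlib 3.10.9).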

Additional observations from a re-analysis of the deposited data

Results flagged for a closer look

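A sample far from the other 3 of its group was found in 7 of 138 group tests (Dixon's test at 95%), where chance gives about 1 in 20. Among the members these were Itgb2 in AdPl replicate 2 (5.83, the others 6.13 to 6.16), Selplg in AdPl replicate 3 (3.80, the others 3.39 to 3.45), Fcgr2b in AdN5 replicate 4 (6.82, the others 7.02 to 7.05), Clec12a in AdN5 replicate 1 (3.78, the others 4.23 to 4.27) and Tlr4 in AdPl replicate 2 (8.32, the others 8.42 to 8.44). The mean of the immunoglobulin-type receptors was 5.17 in AdPl replicate 4 (the others 5.08 to 5.10), and that of the smooth muscle markers was 7.04 in the same array (the others 7.06).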

How the results depend on the processing

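The groups share replicate numbers, but the labels state no pairing. Correlations of deviations between arrays of equal number were small, from -0.0795 to 0.0547. The largest between any AdN5 and AdPl array was 0.148, for AdN5 replicate 4 with AdPl replicate 3. So few values cannot settle whether arrays were paired. With the replicate number as a block, 14 genes and 0 members were called, and the 4 members called without it had adjusted p of 0.0782 (Adgre1), 0.0916 (Clec4d), 0.109 (Selplg) and 0.115 (Slc11a1). Against 192 for all genes called and 4 for members called higher, the counts were 497 and 7 among genes above the median level, 386 and 4 above the limit for dim genes, 781 and 10 under a robust variance trend, 42 and 1 at an adjusted p under 0.01, 110 and 4 at 1.5-fold or more, and 30 and 1 without AdPl replicate 3 and AdN5 replicate 4, an alternative chosen after seeing the data. The fits that left out an array called 56 to 88 genes and 1 to 4 members. In all of these fits, the block included, 0 members were called lower. Across them the members' median log2 fold change, 0.238, ran from 0.201 (without AdN5 replicate 3) to 0.303 (among genes above the median level, where 33 members were tested). The filters tested fewer genes, and the fits that left some arrays out had fewer arrays. The cause of these differences was not tested. Levels under the limit for dim genes bound what can be said of 7 members. A further 7 members lay between that limit and the median gene. The AdPl-labelled mean of the called gene Selplg, 3.52, also lay under the median level of all genes, 3.73.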
